A study of Mus musculus with 6 samples.

Results

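Complement is a cascade of plasma and tissue proteins that tags particles for uptake by phagocytes, releases small inflammatory peptides and can open a pore in a target membrane. The 9 genes described here are the components and regulators C4b, C2, C3, Cfb, Cfd, Cfi, Cd55, C6 and C7, chosen by gene symbol among the 34745 genes of the deposited table, without the C1 complex that starts the classical pathway. All 9 were present in the table under these symbols and all 9 had enough counts to be tested. They were measured by RNA sequencing in prostate tissue of male C57BL/6 mice. The mice were described as 6 to 8 weeks old and were acclimatized before they were divided into groups. In the 3 mice of the T + E2 group, pellets lay under the skin for 12 weeks and were renewed monthly. The pellets contained testosterone (T) and oestradiol (E2) at a ratio of 10 to 1 by weight. The 3 mice of the CON group had only the skin incision and its closure, so no pellet without hormone was implanted, and T and E2 cannot be told apart because they were given together.

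In the classical pathway C4 and C2 are cleaved to form an enzyme that splits C3, the protein on which all routes of activation meet. The alternative pathway builds a second C3-splitting enzyme from C3 and factor B, which factor D cuts into its active form. Factor I inactivates the deposited fragments of C3 and C4, Cd55 (decay-accelerating factor) takes the C3-splitting enzymes apart on the cell's own surface, and C6 and C7 join C5b, C8 and C9 in the membrane attack complex. The liver makes most of the complement in plasma, factor D comes mainly from fat, and C3 is a textbook oestrogen-induced gene in the rodent uterus.

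In the hormone-treated prostates, 4 of the 9 genes were upregulated DEGs, with an adjusted p under 0.05 and a log2 fold change over 1, and none was downregulated. The count of downregulated genes was also 0 at an unadjusted p under 0.05 in edgeR and at the adjusted p of DESeq2. The share of all genes that were lower by either of these rules is not given here. Among all 15580 genes tested, 4.27% were upregulated and 3.38% downregulated by the same thresholds. The upregulated genes were C4b of the classical pathway, the inhibitor Cfi and both terminal components, C6 and C7. Cd55 passed the adjusted p with a smaller fold change, which made 5 of 9 higher and none lower by edgeR's adjusted p alone, beside 10.4% and 9.25% of all tested genes. By the adjusted p of DESeq2, the tool the authors used, 8 of 9 were higher, all but Cfd, beside 9.84% of the genes it tested. In 6 of the 9 genes every T + E2 mouse lay above every CON mouse, beside 20.0% of all tested genes, and in none did every T + E2 mouse lie below, beside 20.7%. The median log2 fold change of the 9 genes was 0.90, and that of all tested genes was -0.002. In whole tissue, a change in the number of cells that make a transcript and a change in the amount of transcript in each cell cannot be told apart.

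**Figure D1:**
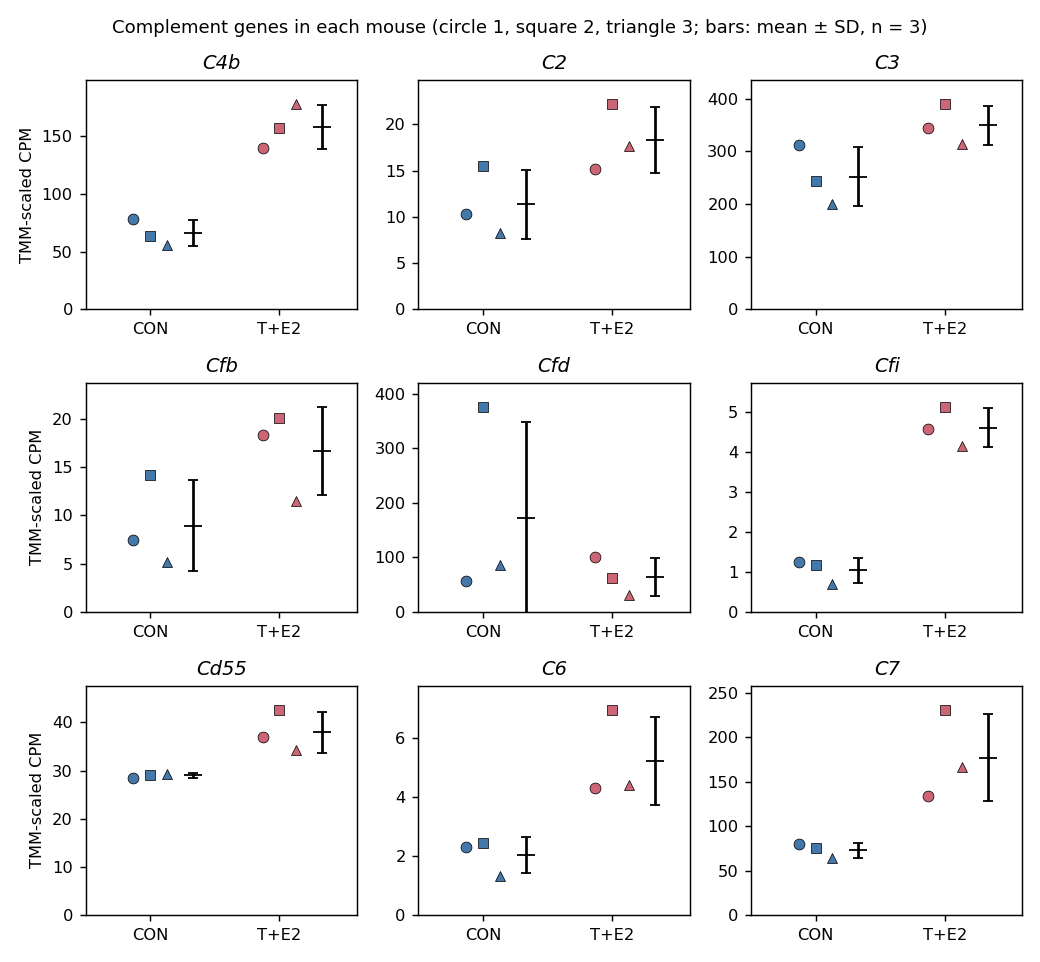
Expression of the 9 complement genes in each mouse, in TMM-scaled CPM (reads counted on the gene relative to the scaled total of its library, linear axes from 0). Blue points are CON mice and red points T + E2 mice, with the symbol giving the replicate number, and the black bars are means ± SD of 3 mice. The groups are apart for C4b, C3, Cfi, Cd55, C6 and C7 and overlap for C2, Cfb and Cfd, whose CON bar is cut at 0 because 1 mouse stood at 375 CPM.

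Sequence matters for how these genes can be counted. C4b has a close paralogue, C4a, whose end lies 65.2 kb from C4b on chromosome 17, and a BLAST alignment of the C4b transcript to C4a ran over 5378 of its 5379 bases at 95.9% identity. The stretch below is from exon 21 of 41 of C4b, at chr17:34735430-34735489 on the minus strand (GENCODE M21, build GRCm38), and is shown because 13 of its 60 bases differ, more than elsewhere on average. Capitals mark the differing bases.
C4b: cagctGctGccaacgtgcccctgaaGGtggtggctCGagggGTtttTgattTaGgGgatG
C4a: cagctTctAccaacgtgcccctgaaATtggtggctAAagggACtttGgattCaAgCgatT

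Promoter windows, from 250 bases before to 50 bases after the start of the gene, were read from RefSeq (GRCm38.p6) for C3, C6, C7, Cd55 and Cfd. The windows were searched on both strands for short letter patterns, whose presence describes the sequence and does not show that a factor binds. The hexamer AGGTCA, the core of oestrogen response elements, occurred in 3 of these 5 windows, in C3, C6 and C7, and in 16.3% of all 32851 RefSeq windows. Counted from the RefSeq start, it lay 243 bases before it in C3, 72 in C7 and 40 in C6. For C6 the RefSeq start lies inside the gene as the deposited table has it, and the first base of that gene, 4727175, falls within the hexamer. The hexamer AGAACA of androgen response elements was in 0 of the 5 windows and in 19.0% of all windows. C3 also held TTGCNNAA, a C/EBP pattern found in 10.8% of windows, 45 bases before its start, and C7 held the STAT pattern TTCNNNGAA, found in 8.30%, 164 bases before its start. TATAAA was present in C7, on the opposite strand 6 bases before the start, and in C3, 14 bases after the start, beside 13.6% of all windows. The 3 NF-kB patterns searched (GGGACTTTC, GGGAATTTC and GGGAAATTC), the C/EBP pattern TTGCGCAA, the full oestrogen palindrome and the interferon-response core were in 0 of the 5 windows, beside 0.353%, 0.259%, 0.253%, 0.183%, 0.0700% and 3.44% of all windows, respectively. The bases before the start of C3 (chr17:57228137-57228386, minus strand) and C7 (chr15:5063774-5064023, minus strand) and a short stretch around that hexamer in C6 (chr15:4727158-4727187, plus strand) are shown because these 3 genes hold AGGTCA. Capitals mark AGGTCA, TTGCNNAA and TATAAA on either strand.
C3: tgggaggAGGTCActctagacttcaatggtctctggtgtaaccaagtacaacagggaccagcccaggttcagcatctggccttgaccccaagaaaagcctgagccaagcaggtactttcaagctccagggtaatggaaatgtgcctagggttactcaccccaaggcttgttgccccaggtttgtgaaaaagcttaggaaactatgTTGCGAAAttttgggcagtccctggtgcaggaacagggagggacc
C7: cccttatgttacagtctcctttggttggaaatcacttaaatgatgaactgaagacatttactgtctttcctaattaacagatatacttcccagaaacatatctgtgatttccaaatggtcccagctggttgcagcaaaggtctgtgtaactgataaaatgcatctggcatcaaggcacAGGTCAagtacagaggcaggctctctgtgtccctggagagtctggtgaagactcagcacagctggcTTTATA
C6: tgtcaacagtttAGGTCAccgttagggttt

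Between 14816146 and 16555549 reads were counted on genes in each mouse, and 3 counts, taken as the limit of detection, were worth 0.183 to 0.208 CPM, which covers counting error only. Epithelial transcripts of the prostate were present in all 6 libraries, and luminal markers moved in both directions. The keratin Krt18 was at 852 to 961 CPM in the controls and 590 to 651 CPM in the T + E2 mice (log2 fold change -0.54, edgeR adjusted p = 0.00704), whereas Epcam was at 387 to 421 CPM and 873 to 982 CPM (1.18, edgeR adjusted p = 0.00017) and Cdh1 at 381 to 433 CPM and 486 to 541 CPM (0.34, edgeR adjusted p = 0.0462). However, 2 libraries stood apart from the rest of their group. Transcripts of the seminal vesicle, a neighbouring gland, summed to 10272 CPM in CON 2 and 642 CPM in T + E2 2, and to 0.629 to 3.84 CPM in the other 4 mice. CON 2 also had the most adipocyte transcripts. Values without these mice are given where leaving them out changed a call of a member of the described set or of another complement DEG. For all other genes, among them the C1q chains and the cell markers, calls without these mice are not given here.

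C4b (chr17:34728380-34743882, minus strand) encodes the C4 protein that is cleaved to begin the classical and lectin C3-splitting enzyme. Its level was 77.9, 63.6 and 55.9 CPM in CON mice 1 to 3 and 139, 157 and 178 CPM in T + E2 mice 1 to 3. The lowest T + E2 mouse stood well above the highest CON mouse. The means were 65.8 ± 11.2 and 158 ± 19.2 CPM (SD, n = 3 each), a 2.40-fold difference with a log2 fold change of 1.26 (SE 0.15, edgeR adjusted p = 0.00098). The paralogue C4a, annotated as a processed transcript, gave 2.12, 2.10 and 1.32 CPM in the controls and 1.18, 1.34 and 1.53 CPM in the T + E2 mice. Its groups overlapped and it did not pass the test (log2 fold change -0.45, SE 0.29, edgeR adjusted p = 0.312). C4b therefore took 96.8 to 97.7% of the reads counted on the pair in the CON group and 99.1 to 99.2% in the T + E2 group, and the summed pair had a log2 fold change of 1.24 (edgeR adjusted p = 0.0011). How reads that match both copies were assigned is not given in the sources used here.

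C3 (chr17:57203970-57228136, minus strand), the central component, had the most counts of the 9 genes in 5 of the 6 mice. Its levels were 312, 244 and 200.2 CPM in the controls and 345, 390 and 315 CPM in the T + E2 mice. The T + E2 mice were all above the CON mice, but the lowest of them was only just above CON 1. With means of 252 ± 56.2 and 350 ± 37.8 CPM (SD, n = 3 each), C3 did not pass the test (log2 fold change 0.47, SE 0.17, edgeR adjusted p = 0.083). Leaving out CON 1, its highest control, gave 0.65 with an edgeR adjusted p of 0.0211, and DESeq2 gave 0.47 with an adjusted p of 0.0222.

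C2 (chr17:34862604-34898265, minus strand) supplies the protease of the classical C3-splitting enzyme, and Cfb (chr17:34856374-34862518, minus strand) encodes factor B, its counterpart in the alternative pathway. The annotated genes are neighbours on the same strand, 85 bases apart, and the span from C4b to C2 covers 169.9 kb. A part of C2 (161 exon bases) also overlaps Zbtb12 on the opposite strand, and whether counting used the strand is not given in the sources used here. C2 was at 10.3, 15.5 and 8.24 CPM in the controls and 15.1, 22.2 and 17.7 CPM in the T + E2 mice. CON 2 was level with the lowest T + E2 mouse, so the groups overlapped by a small margin. The log2 fold change was 0.69 (SE 0.24, edgeR adjusted p = 0.0831). For Cfb the values were 7.48, 14.2 and 5.16 CPM in the controls and 18.3, 20.1 and 11.5 CPM in the T + E2 mice. Again CON 2 was the highest control and lay above T + E2 3. Cfb had a log2 fold change of 0.90 (SE 0.36, edgeR adjusted p = 0.122). Without CON 2 both passed the adjusted p, with 0.98 for C2 (edgeR adjusted p = 0.0199) and 1.40 for Cfb (edgeR adjusted p = 0.0175).

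Another annotated gene, Gm20547 (chr17:34856412-34882042), overlaps both on the same strand. It shares 2246 exon bases with Cfb, which is 79.5% of the exon bases of Cfb. With C2 it shares 1656, which is 42.8% of those of C2. These are 57.6% and 42.4% of the exon bases of Gm20547, so it has no exon base outside Cfb and C2. Reads from the shared exons therefore cannot be assigned to a single gene by position. Gm20547 received 184, 22 and 152 counts in the controls and 238, 506 and 266 in the T + E2 mice. CON 2, the mouse with the highest control values of C2 and Cfb, had by far the fewest. Whether every library was counted with the same settings is not given in the sources used here, which bears on the values of C2 and Cfb in CON 2 and on the results without that mouse. Gm20547 took 4.64% of the counts on the 3 genes in CON 2, against 33.0 to 42.2% in the other 5 mice. When the counts of the 3 genes were summed, a step chosen after the data had been seen, the levels were 30.0, 31.1 and 22.9 CPM in the controls and 49.9, 73.1 and 46.9 CPM in the T + E2 mice. The groups no longer overlapped, and CON 2 was close to CON 1. The locus as a whole was higher in the T + E2 group, at 28.0 ± 4.44 against 56.6 ± 14.3 CPM (SD, n = 3 each), with a log2 fold change of 1.02 (SE 0.19, edgeR adjusted p = 0.00871). The sum does not say which of the 3 genes the difference belongs to.

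**Figure D2:**
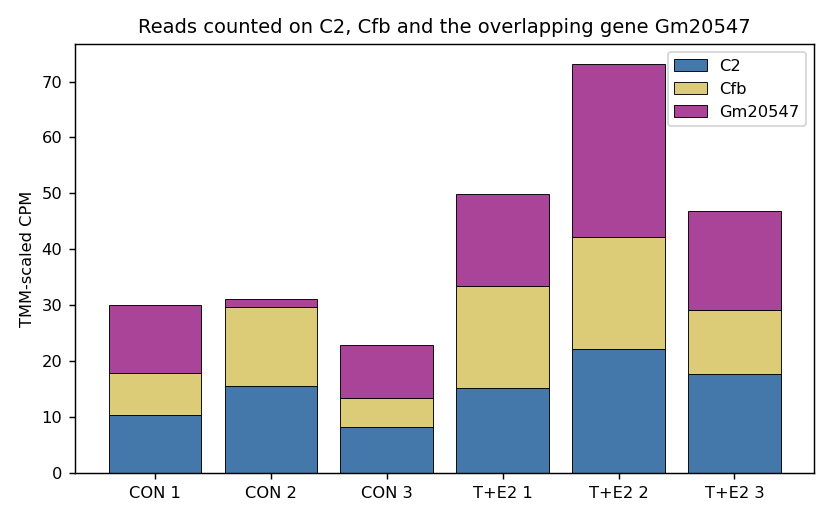
Reads counted on C2, Cfb and the overlapping gene Gm20547 in each mouse, stacked, in TMM-scaled CPM (linear axis from 0). The whole bars reach 22.9 to 31.1 CPM in the controls and 46.9 to 73.1 CPM in the T + E2 mice, while the Gm20547 segment nearly vanishes in CON 2.

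Cfd (chr10:79890853-79892656, plus strand) encodes factor D, also called adipsin, the protease that activates factor B. It was the only gene of the 9 with a fitted decrease. The CON mice had 56.9, 375 and 85.9 CPM and the T + E2 mice 100.4, 61.7 and 31.5 CPM. CON 2 was far above all others, and the other 5 mice overlapped across the groups. The log2 fold change of -1.42 (SE 0.70, edgeR adjusted p = 0.193) did not pass the test, and without CON 2 it was -0.15 (edgeR adjusted p = 0.846). Cfd followed the fat transcripts of each library. The summed level of 8 adipocyte markers (among them Adipoq, Plin1 and Fabp4) was 69.6, 395 and 102 CPM in the controls and 106, 81.3 and 48.8 CPM in the T + E2 mice, the same order of mice as for Cfd. The ratio of Cfd to that sum was 0.817, 0.951 and 0.839 in the controls and 0.95, 0.759 and 0.645 in the T + E2 mice, so it varied far less than Cfd itself. Of the 8 markers 7 could be tested, and all 7 had fitted values below 0. By edgeR 0 passed the adjusted p, beside 9.25% of all tested genes that were lower by that rule. At an unadjusted p under 0.05 in edgeR 4 were lower, and DESeq2 called 2 lower. The share of all genes lower by the unadjusted p or by DESeq2 is not given here. The part of these cells in the values of Cfd was not tested beyond this ratio.

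**Figure D3:**
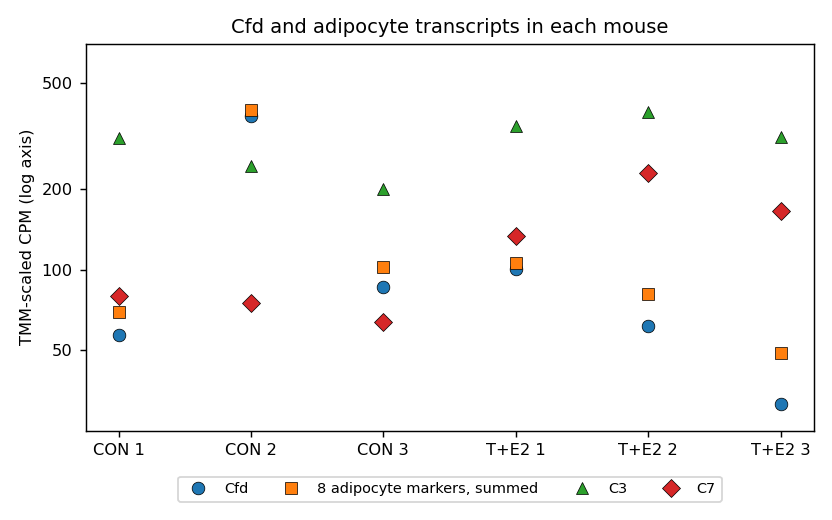
Level of Cfd, of 8 adipocyte markers summed, of C3 and of C7 in each mouse, in TMM-scaled CPM on a log axis. Cfd and the adipocyte sum move together and peak in CON 2, at 375 and 395 CPM, whereas C3 and C7 have no peak in that mouse.

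The inhibitor genes were both higher. Cfi (chr3:129835884-129875332, plus strand) encodes factor I, and it had the largest log2 fold change of the 9 genes from a low level. It had 19, 18 and 11 counts in the controls and 66, 84 and 62 in the T + E2 mice, or 1.26, 1.18 and 0.692 CPM against 4.57, 5.11 and 4.14 CPM. The T + E2 mice were close to each other and all far above the CON mice. The means of 1.04 ± 0.308 and 4.61 ± 0.490 CPM (SD, n = 3 each) gave a 4.40-fold difference, with a log2 fold change of 2.14 (SE 0.28, edgeR adjusted p = 0.0017). It remained a DEG without any single mouse, with log2 fold changes of 1.91 to 2.29.

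Cd55 (chr1:130439027-130462744, minus strand) is anchored in the cell membrane and shortens the life of the C3-splitting enzymes. It stood at 28.5, 29.2 and 29.3 CPM in the CON mice, which were nearly equal, and at 36.9, 42.6 and 34.2 CPM in the T + E2 mice. All T + E2 mice were above all CON mice by a modest step. The means were 29.0 ± 0.444 and 37.9 ± 4.25 CPM (SD, n = 3 each), a 1.31-fold difference with a log2 fold change of 0.39 (SE 0.10, edgeR adjusted p = 0.0346). That call was thin, since leaving out any mouse but T + E2 3 moved the edgeR adjusted p to between 0.0754 and 0.0910. The paralogue Cd55b, 16.0 kb away and 91.6% identical over 1157 bases, had at most 4 counts in any CON mouse and at most 11 in any T + E2 mouse. Adding its counts to Cd55 left a log2 fold change of 0.40 (edgeR adjusted p = 0.0335). Without both CON 2 and T + E2 2 the log2 fold change of Cd55 was 0.30 (edgeR adjusted p = 0.191). Cd55 also shares 102 exon bases with Gm16083 on the opposite strand.

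C6 and C7, which bind C5b in turn as the membrane attack complex forms, lie 173.3 kb apart on chromosome 15 and were upregulated together. C7 (chr15:4988762-5063773, minus strand) was at 79.8, 75.1 and 63.6 CPM in the controls and 134, 231 and 166 CPM in the T + E2 mice. T + E2 2 was the highest, and even the lowest T + E2 mouse was far above the CON mice. The means were 72.8 ± 8.36 and 177 ± 49.1 CPM (SD, n = 3 each), a 2.43-fold difference with a log2 fold change of 1.28 (SE 0.19, edgeR adjusted p = 0.00326). Without T + E2 2 the log2 fold change was 1.05 (edgeR adjusted p = 0.00543).

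C6 (chr15:4727175-4815456, plus strand) was scarce, with 35, 37 and 21 counts in the controls and 62, 114 and 66 in the T + E2 mice. In CPM these were 2.32, 2.43 and 1.32 against 4.29, 6.94 and 4.40, again with T + E2 2 the highest and no overlap. The log2 fold change was 1.37 (SE 0.31, edgeR adjusted p = 0.0197). C6 lost its call without CON 3 (log2 fold change 1.13, edgeR adjusted p = 0.0564), without T + E2 2 (1.10, edgeR adjusted p = 0.0686) and without both CON 2 and T + E2 2 (1.26, edgeR adjusted p = 0.0952). The FPKM of C6 was 1.17 to 1.83% of that of C7 in the controls and 1.5 to 1.80% in the T + E2 mice, so the ratio of the pair overlapped between the groups.

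**Figure D4:**
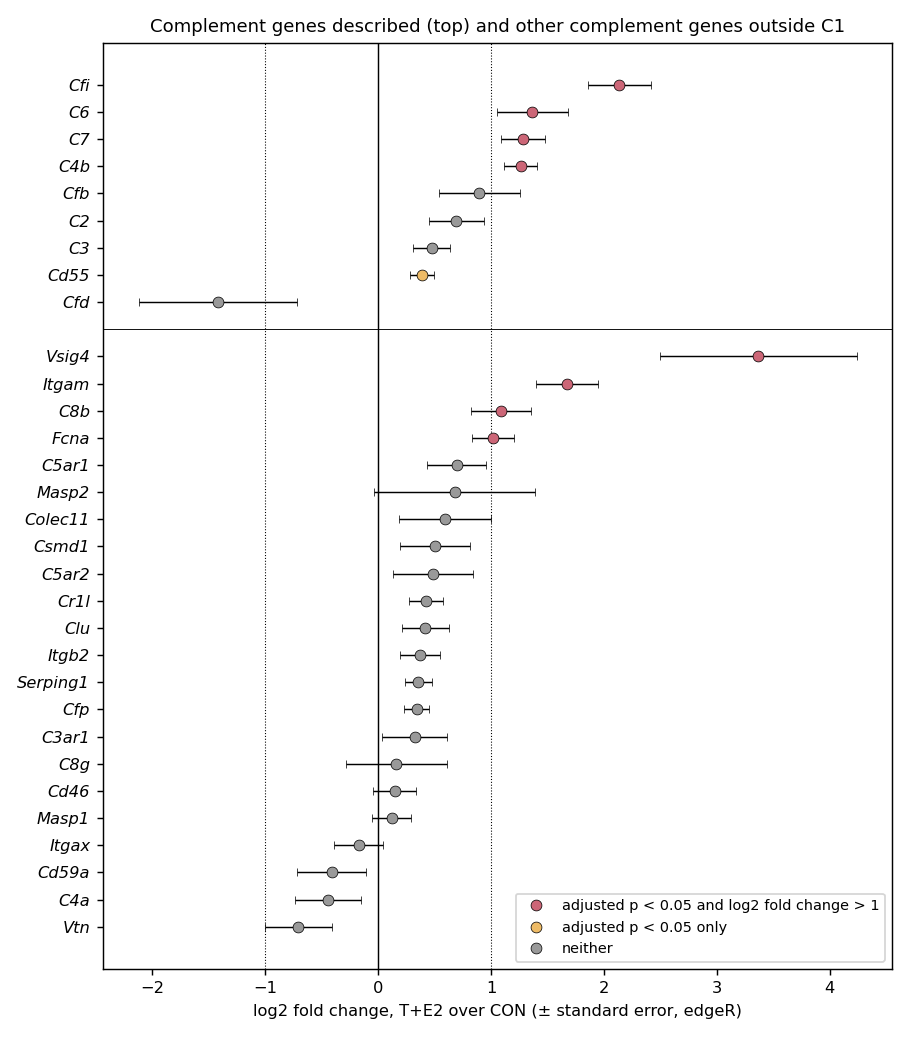
Log2 fold change of T + E2 over CON with its standard error for the 9 complement genes (top) and for other tested complement genes outside C1 (bottom, without Cpn1, which had 1 count in the CON group). Red points passed both thresholds, yellow points the adjusted p alone and grey points neither, and dotted lines mark a log2 fold change of 1 in either direction. C4b, Cfi, C6 and C7 are red in the upper set and Cfd is the only point below 0 there.

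FPKM, which divides by gene length, allowed the 9 genes to be ordered within a group. In the CON group Cfd had the highest mean FPKM (191 ± 196, or 77.6 without CON 2, against 45.4 for C3 without that mouse), followed by C3 (45.0 ± 10.5), C7 (27.2 ± 3.52), C4b (10.6 ± 1.91) and Cd55 (4.71 ± 0.0798). C2 (2.04 ± 0.701) and Cfb (1.90 ± 1.02) came next and overlapped each other, as did Cfi (0.433 ± 0.133) and C6 (0.428 ± 0.135), the lowest (FPKM, SD, n = 3). In the T + E2 group Cfd (68.2 ± 34.7), C7 (64.6 ± 18.7) and C3 (60.7 ± 6.46) overlapped at the top. C4b (24.8 ± 3.70) and Cd55 (6.00 ± 0.676) followed, then Cfb (3.41 ± 0.892) and C2 (3.21 ± 0.667), which overlapped, and then Cfi (1.85 ± 0.192) and C6 (1.07 ± 0.316), which no longer did. The FPKM of C7 relative to C3 was 0.537, 0.646 and 0.666 in the controls and 0.817, 1.24 and 1.11 in the T + E2 mice. C4b relative to C3 was 0.226, 0.235 and 0.252 in the controls and 0.365, 0.363 and 0.510 in the T + E2 mice. Neither of these ratios overlapped between the groups, so C7 and C4b were higher relative to C3 in every T + E2 mouse. An exact permutation test of 3 against 3 mice cannot go below p = 0.1, and none was run on the ratios. The authors' FPKM of Cfb rested on a gene length of 4800 bases, against 2825 exon bases in GENCODE M21. The lengths were 5643 against 3872 for C2, 4800 against 3556 for C6, 6226 against 4853 for Cd55 and 2450 against 2220 for Cfi. The places of C2, Cfb, Cfi and C6 in this order therefore depend on the gene model.

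Beyond the 9 genes, 45 other complement genes were listed, and 31 of them had enough counts to be tested. Of these, 5 were upregulated and 2 downregulated, beside 4.27% and 3.38% of all tested genes, with a median log2 fold change of 0.42. The upregulated genes numbered 6 without CON 1, 3 without CON 2 and 3 without CON 3. They numbered 4 without T + E2 1, 2 without T + E2 2 and 3 without T + E2 3. Without both CON 2 and T + E2 2 there were 2. C1rb and C1s2 were downregulated each time. Both downregulated genes belonged to C1, namely C1rb (log2 fold change -8.82, edgeR adjusted p = 2.6e-05) and C1s2 (-8.28, edgeR adjusted p = 2.0e-07). The C1q chains C1qa, C1qb and C1qc passed the adjusted p alone, with log2 fold changes of 0.63, 0.77 and 0.58 (edgeR adjusted p = 0.0428, 0.00914 and 0.0392).

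Among fluid-phase regulators, Cpn1, a subunit of the carboxypeptidase that trims the peptides C3a and C5a, had 0, 0 and 1 counts in the controls and 27, 27 and 26 in the T + E2 mice. The ratio of the summed counts, corrected for depth, was 80.6 (exact 95% interval 14.1 to 3224, counting error only), and Cpn1 passed the test (edgeR adjusted p = 0.00056), as it did without any single mouse. The C1 inhibitor Serping1 had a log2 fold change of 0.36 (edgeR adjusted p = 0.0669), and clusterin (Clu), which binds terminal complexes in solution, had 0.42 (edgeR adjusted p = 0.201), and neither passed.

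The partners of C6 and C7 were unevenly represented. C8b, the chain through which C8 joins the complex, was at 3.05, 4.01 and 2.14 CPM in the controls and 7.13, 7.0 and 5.41 CPM in the T + E2 mice, and was upregulated (log2 fold change 1.09, SE 0.26, edgeR adjusted p = 0.0242). That call was lost without CON 1, CON 3, T + E2 1 or T + E2 2, with edgeR adjusted p of 0.0572 to 0.0782, and without both CON 2 and T + E2 2 (edgeR adjusted p = 0.0659). C8g did not pass (0.16, edgeR adjusted p = 0.830). Transcripts of C5 (Hc) reached at most 1 count in any mouse, C8a at most 4, and C9, which forms the wall of the pore, was at 0 counts in all 6 mice. Each count of 0 allows a level of up to 0.183 to 0.208 CPM.

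Of the recognition proteins and receptors, ficolin A (Fcna), which starts the lectin pathway, was upregulated from 13.9 ± 3.02 to 28.1 ± 4.05 CPM (SD, n = 3 each; log2 fold change 1.02, edgeR adjusted p = 0.00731). Its log2 fold change fell under the threshold without CON 2 (0.85), T + E2 2 (0.94), T + E2 3 (0.97) or both CON 2 and T + E2 2 (0.77), with edgeR adjusted p of 0.0124 to 0.0410. Itgam, the alpha chain of complement receptor 3, was upregulated from 8.27 ± 3.56 to 26.4 ± 0.916 CPM (SD, n = 3 each; 1.67, edgeR adjusted p = 0.00485), and it kept its call without any single mouse and without both CON 2 and T + E2 2. The beta chain of that receptor, Itgb2, did not pass (0.37, edgeR adjusted p = 0.181), and neither did Itgax (-0.17, edgeR adjusted p = 0.607). Vsig4, a macrophage receptor for C3 fragments, was near the detection limit, with 4, 0 and 0 counts in the controls and 11, 24 and 10 in the T + E2 mice (edgeR adjusted p = 0.0312). It kept its call only without CON 1, and the other mice left out gave edgeR adjusted p of 0.0507 to 0.109, with 0.197 without both CON 2 and T + E2 2. The C3a receptor C3ar1 (0.32, edgeR adjusted p = 0.463) and properdin (Cfp, 0.34, edgeR adjusted p = 0.0678), which stabilises the alternative C3-splitting enzyme, did not pass.

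Markers of cells that can make complement were compared across the same mice. Macrophage markers summed to 195 to 280 CPM in the controls and 313 to 476 CPM in the T + E2 mice, and 2 of the 8, Mrc1 (log2 fold change 1.14, edgeR adjusted p = 0.0135) and Cd163 (1.41, edgeR adjusted p = 0.00758), were upregulated. By adjusted p alone Cd14 was also higher (0.64, edgeR adjusted p = 0.0191) and Cx3cr1 was lower, with every T + E2 mouse below every CON mouse (-0.84, edgeR adjusted p = 0.0433). Adgre1, Csf1r, Cd68 and Lyz2 did not pass the test. T + E2 2, the highest mouse for C7 and C6, was also the highest for Mrc1 and Cd163, at 114 and 91.9 CPM. This was not particular to macrophage markers. The same mouse had the highest sums for fibroblasts (2132 CPM), basal epithelium (313 CPM), endothelium (183 CPM) and hepatocytes (7.31 CPM). It was also highest for mesothelium, B and plasma cells, and neutrophils. Luminal, smooth muscle, adipocyte and seminal vesicle sums were highest in other mice. Fibroblast markers summed to 1697 to 1819 CPM in the controls and 1750 to 2132 CPM in the T + E2 mice, and 0 of the 8 passed edgeR's adjusted p, an unadjusted p under 0.05 or DESeq2's adjusted p. Hepatocyte markers summed to 0.854 to 1.19 CPM in the controls and 3.34 to 7.31 CPM in the T + E2 mice. Albumin (Alb) made up most of the sum in the T + E2 mice only and was upregulated (edgeR adjusted p = 0.00273). Of the 8 markers 2 could be tested, and the other, Ttr, did not pass (log2 fold change 0.06, edgeR adjusted p = 0.934). Apoa1, Serpina1a and Fgb were at or near 0. Apoh had 5, 0 and 0 counts in the controls and 9, 11 and 5 in the T + E2 mice. For Apob these were 2, 0 and 0 against 4, 5 and 6, and for Ahsg 1, 0 and 0 against 4, 4 and 0. These counts were too low to be tested. The part of macrophages in the complement values was not tested. For comparison, the 8 complement genes other than Cfd summed to 364 to 519 CPM in the controls and 698 to 874 CPM in the T + E2 mice.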

How the data were processed

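Prostate tissue of 3 CON and 3 T + E2 mice was sequenced from paired-end TruSeq libraries. The submitters' processing notes name TopHat, Bowtie2 and HTSeq, and the settings for strand and shared reads are not given in the sources used here. The authors deposited whole-number counts per gene, without normalization, and FPKM computed from them by gene length and depth. Coordinates lie on GRCm38: of 34267 gene identifiers found in GENCODE M21, 27686 have the same start and end.

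Groups were taken from the sample labels. Counts were filtered (filterByExpr, minimum count 10, minimum total 15), scaled by TMM and tested with edgeR 4.0.16 by the quasi-likelihood test, with Benjamini-Hochberg adjustment over 15580 genes. Each standard error was obtained by dividing the fitted difference by the square root of F. The biological coefficient of variation was 18.0%. The procedure was tested on simulated data. DESeq2 1.42.0 (the authors' tool), limma 3.58.1 on log2(FPKM + 0.1) and log2(FPKM + 1), other scalings and filters, a replicate block and each mouse left out were alternatives. Similar transcripts were found with BLAST 2.17.0.

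Members and gene lists were chosen with earlier results of these data known. Named genes were all 9 members, other complement genes past both thresholds, and partners or paralogues of members, and some listed genes are not reported here. C2, Cfb, C4b and Cfi had no promoter window. Figures were drawn with matplotlib 3.10.9.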

Additional observations from a re-analysis of the deposited data

How the results depend on the processing

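All 9 complement genes kept the direction of their fitted difference under every alternative run. The 4 DEGs became 2 (C4b and C7) with limma on log2(FPKM + 1), which shrinks differences of low genes such as Cfi (1.00) and C6 (0.53), and 3 to 5 when a mouse was left out. Of the other complement genes, 7 changed in the main fit. The count was 3 with limma on log2(FPKM + 1) and 4 without both CON 2 and T + E2 2 (chosen after seeing the data). It was 11 at an adjusted p under 0.05 with no threshold on the fold change, beside 10.4% of all tested genes higher and 9.25% lower. When a mouse was left out it was 4 to 8, while 553 to 718 of all genes were upregulated and 402 to 494 downregulated. DESeq2 called the same 4 members, and at its adjusted p alone 8 of 9 instead of 5, beside 9.84% of all genes it tested. A filter at an FPKM of 1 left C6 untested. With the replicate number as a block, 4 members were called (beside 598 of 15580 genes upregulated), and at the adjusted p alone C2 (0.0386) and Cfb (0.0264) were gained and Cd55 (0.0737) was lost. The numbers do not pair the mice: same-numbered mice had correlations of -0.05, 0.03 and 0.05, and not every mouse correlated best with its own number. Standard errors were largest for Cfd (0.70) and Cfb (0.36), and Cfi and C6 had the fewest counts, 11 to 114 in a mouse.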
